A study of Mus musculus with 11 samples.

Results

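Here 10 genes that mark dendritic cells or drive their development were followed in RNA-seq of whole mouse liver: the receptor gene Flt3, the regulators Irf8, Irf4, Batf3 and Zbtb46, the antigen presentation gene Wdfy4, and the surface lectin genes Clec9a, Cd209a, Clec10a and Siglech. They were chosen by name as textbook markers and factors, and all 10 of the 10 names were found among the 55414 genes of the count table. Libraries of polyA RNA came from 11 livers of male Clec4f-DTR mice, whose Clec4f gene, active in Kupffer cells, drives a receptor for diphtheria toxin (DT). The DT group (n = 4) was fed a western diet with alcohol and given serial DT injections. The saline group (n = 4) had that same diet and serial saline injections. The chow group (n = 3) ate normal chow and its labels name no injection, so in any comparison with chow an effect of the diet and an effect of injections cannot be told apart. Feeding began at 8 weeks of age and lasted 16 weeks, and all 3 groups carried the receptor. The sources used here give no dose or schedule of DT and do not say whether each liver came from a different cage or batch, so the p-values measure the spread between these livers. The extraction text speaks of sorted CD45-positive cells, but each sample is labelled as tissue of the whole organ, and Alb, the hepatocyte gene for albumin, stood at 47582 to 80325 CPM in all 11 libraries.

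Dendritic cells take up antigen and present it to T cells. Conventional type 1 cells (cDC1) depend on IRF8 and BATF3 and cross-present antigen to CD8 T cells, conventional type 2 cells (cDC2) use IRF4, and plasmacytoid cells (pDC) are sources of type I interferon. All of them grow in response to FLT3 ligand through its receptor FLT3. In liver they are a small share of all cells, found mostly around the portal tracts.

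Promoters of 4 of the genes are printed because they carry, or lack, the short elements through which IRF proteins and PU.1 bind DNA. RefSeq promoter windows of 300 bases (250 before to 50 after the transcription start, build GRCm38.p6) were matched for 9 of the 10 genes, with 10 windows in all because Irf8 has 2 listed starts. Both strands were searched for the ETS-IRF composite element GGAANNGAAA (EICE), the interferon-stimulated response element GAAANNGAAA (ISRE), the AP-1 element TGANTCA and the PU.1 core GAGGAA. Capitals mark a match to one of these motifs, and sequences read 5′ to 3′ along the strand of the gene: Irf8 at chr8:120736108-120736407 (plus strand), Wdfy4 at chr14:33185017-33185316 (minus strand), Irf4 at chr13:30748983-30749282 (plus strand) and Cd209a at chr8:3748935-3749234 (minus strand).
Irf8: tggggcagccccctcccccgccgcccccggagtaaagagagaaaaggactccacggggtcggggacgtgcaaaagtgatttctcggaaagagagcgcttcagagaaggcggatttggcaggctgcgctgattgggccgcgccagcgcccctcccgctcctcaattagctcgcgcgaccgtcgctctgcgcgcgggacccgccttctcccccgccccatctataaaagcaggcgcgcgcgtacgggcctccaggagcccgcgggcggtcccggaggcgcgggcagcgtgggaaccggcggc
Wdfy4: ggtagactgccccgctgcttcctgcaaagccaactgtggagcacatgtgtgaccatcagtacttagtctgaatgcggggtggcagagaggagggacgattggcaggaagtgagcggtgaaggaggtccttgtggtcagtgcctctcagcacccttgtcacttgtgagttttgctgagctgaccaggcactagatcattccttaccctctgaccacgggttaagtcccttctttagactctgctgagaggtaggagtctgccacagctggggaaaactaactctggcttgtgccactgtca
Irf4: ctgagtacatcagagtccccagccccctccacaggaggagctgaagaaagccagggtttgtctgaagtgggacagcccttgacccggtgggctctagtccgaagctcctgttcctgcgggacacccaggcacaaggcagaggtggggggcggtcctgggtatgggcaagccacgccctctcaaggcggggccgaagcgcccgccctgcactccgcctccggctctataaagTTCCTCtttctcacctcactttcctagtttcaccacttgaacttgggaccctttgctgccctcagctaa
Cd209a: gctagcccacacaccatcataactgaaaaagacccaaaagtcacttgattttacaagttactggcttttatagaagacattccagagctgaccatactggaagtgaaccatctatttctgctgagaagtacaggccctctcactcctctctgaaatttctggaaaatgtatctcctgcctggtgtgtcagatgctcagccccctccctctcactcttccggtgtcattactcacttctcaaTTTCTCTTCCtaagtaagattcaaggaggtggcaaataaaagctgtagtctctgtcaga
The Cd209a window held an EICE match on its minus strand, printed as TTTCTCTTCC, starting 9 bases before the listed start. An EICE match was present in 2.72% of the 32851 RefSeq promoters of the same length and in 1 of the 10 windows of these genes. The Irf4 window held a PU.1 core, as did those of Siglech and Batf3, giving 3 of 10 windows against 28.3% of all promoters. An AP-1 match, TGACTCA, stood 61 bases before the start of Zbtb46, 1 of 10 windows against 7.81% of all promoters. The ISRE letters were in 0 of the 10 windows and in 3.44% of all promoters. The windows of Irf8 and Wdfy4, whose levels moved most alike across the livers, held none of the 4 motifs. A match here is a description of letters and no evidence of binding.

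Total counts were 43995217 to 58089531 per library, and 17038 genes passed the filter on low counts and were tested. Levels below are in CPM, read counts scaled to library size with TMM factors. A gene is called where edgeR's quasi-likelihood test gives a Benjamini-Hochberg adjusted p below 0.05 over all tested genes. At this depth 3 counts, taken as the smallest level that can be told from 0, equal 0.0398 to 0.0773 CPM. Clec4f, the check of the toxin, had 9.06, 15.2, 7.51 and 6.18 CPM in DT livers, against 46.6, 49.1, 43.1 and 44.9 CPM in saline livers (log2 fold change -2.28, adjusted p = 0.00125), so it was low in all 4 DT livers. DT liver 2 stood apart all the same. On the leading principal component, which carried 75.9% of the variance, DT livers 1, 3 and 4 scored 62.53 to 71.78 and DT liver 2 scored -14.24, among the saline and chow livers at -34.56 to -10.33. DT liver 1 had low values for genes of low GC content (a shift of -0.81 log2, against 0.04 to 0.22 in the other 10 libraries). For DT against saline, values without DT liver 2 stand beside those of the 10 genes whose call it changes.

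In DT livers, against saline livers, Clec9a rose 2.18-fold and Wdfy4 2.02-fold, and the other 8 genes were not called. Thus 2 of the 10 genes were called higher and 0 lower by edgeR, which is 20% beside 21.9% of all tested genes called in either direction and 14.3% called higher, a share near the background. At an unadjusted p below 0.05 the count was 7, beside 37.4% of all genes. DESeq2 called 6, beside 16.6% of the 28842 genes it was run on, and limma-voom called 2 (Clec9a and Irf4), beside 18.2%. All 10 log2 fold changes were above 0, with a median of 1.07 beside 0.02 over all genes. For 7 of the 10 genes, namely Clec9a, Flt3, Cd209a, Irf8, Irf4, Wdfy4 and Clec10a, each of DT livers 1, 3 and 4 lay above every saline liver, a pattern described after the principal components were seen and held by 24.6% of all tested genes. DT liver 2 lay within the saline range for 7 genes, above it for Clec9a and Irf4 and below it for Flt3. Clec9a and Irf4, 2 of the 10, thus had all 4 DT livers above all 4 saline livers, as had 9.33% of all tested genes. Without DT liver 2 the test called 8 of the 10 genes higher (all but Siglech and Batf3), beside 40.3% of all genes called in that fit. Without DT liver 1 it called 1 (Clec9a, 1.30, adjusted p = 0.0195), beside 18.8% of all genes. After a correction for GC content, added after the low-GC shift of that liver was seen, it also called Clec9a alone, beside 27.1% of all genes. In whole tissue, more cells of a type and more RNA per cell cannot be told apart.

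**Figure D1:**
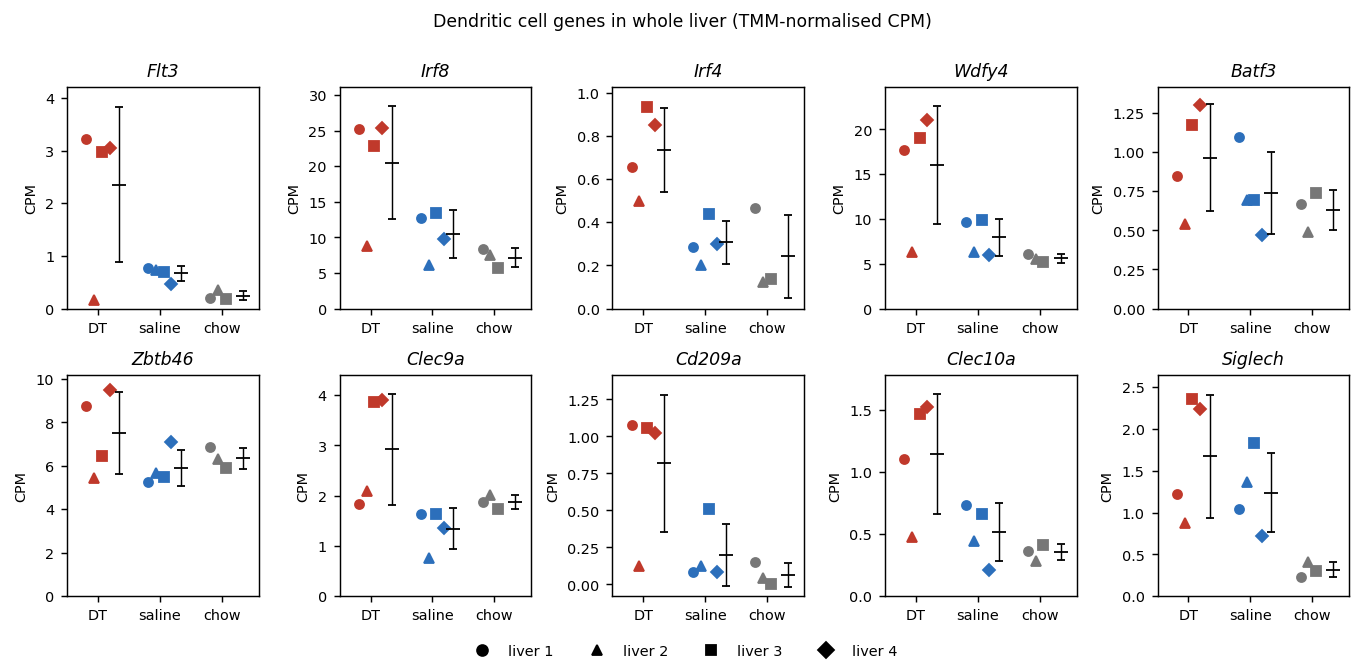
TMM-normalised CPM (vertical axes, linear) of the 10 genes in each DT, saline and chow liver, with the group mean and SD as bars and a symbol for each liver number. The plots of Flt3, Irf8 and Wdfy4 show DT livers 1, 3 and 4 above all saline livers and DT liver 2 (triangle) at 0.166, 8.74 and 6.30 CPM.

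Flt3 encodes the receptor tyrosine kinase through which FLT3 ligand expands dendritic cells and their progenitors. It was at 3.22, 0.166, 2.98 and 3.05 CPM in DT livers, at 0.774, 0.732, 0.695 and 0.468 CPM in saline livers, and at 0.206, 0.348 and 0.185 CPM in chow livers. DT livers 1, 3 and 4 were close to each other and far above the rest. DT liver 2 was the lowest of all 11 but close to chow livers 1 and 3, and every saline liver was above every chow liver. Means were 2.35 ± 1.46 CPM in DT livers (SD, n = 4) and 0.667 ± 0.137 CPM in saline livers (SD, n = 4), a log2 fold change of 1.82 (SE 0.63, adjusted p = 0.0581) that was not called. Without DT liver 2 it was 2.20 with an adjusted p of 0.000104.

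Flt3l, the gene for the ligand, is made by many cell types and was named whatever its values. Its levels were 5.21, 3.02, 7.84 and 6.63 CPM in DT livers, 2.42, 1.73, 1.10 and 1.66 CPM in saline livers and 1.78, 1.96 and 1.82 CPM in chow livers. All 4 DT livers, liver 2 included, were above every saline and chow liver. Flt3l rose in DT livers against saline livers (log2 fold change 1.72, SE 0.31, adjusted p = 0.00684), and the call was kept in 11 of 11 fits that left out 1 liver each. Its annotated exons overlap those of Gm45713 over 856 bases, and the share of reads from that gene was not tested.

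Irf8 encodes the transcription factor required for cDC1, and is also used by pDC, monocytes and B cells. It had 25.3, 8.74, 22.8 and 25.3 CPM in DT livers, 12.8, 6.10, 13.5 and 9.80 CPM in saline livers, and 8.40, 7.47 and 5.65 CPM in chow livers. DT liver 2 fell inside the saline range, and the other 3 DT livers were above all saline livers. The log2 fold change of DT against saline was 0.96 (SE 0.33, adjusted p = 0.0539), not called, and without DT liver 2 it was 1.22 (adjusted p = 0.00209). After a correction for GC content it was 0.63 (adjusted p = 0.103).

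Irf4 encodes the related factor used by cDC2 and by plasma and T cells. It was at 0.657, 0.499, 0.932 and 0.848 CPM in DT livers, 0.285, 0.203, 0.439 and 0.298 CPM in saline livers, and 0.464, 0.123 and 0.138 CPM in chow livers. The 4 DT livers were above all other livers, with chow liver 1 the nearest of the rest. The log2 fold change was 1.25 (SE 0.45, adjusted p = 0.0668), not called by edgeR but called by DESeq2 and limma-voom, and without DT liver 2 it was 1.40 (adjusted p = 0.0306).

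Batf3 and Zbtb46 showed the smallest differences of the regulators. Batf3, the partner of IRF8 in cDC1, had 0.851, 0.541, 1.17 and 1.30 CPM in DT livers, 1.10, 0.691, 0.695 and 0.468 CPM in saline livers, and 0.670, 0.491 and 0.738 CPM in chow livers. The 3 groups overlapped, and the log2 fold change of DT against saline, 0.39 (SE 0.36, adjusted p = 0.446), turned to -0.16 after correction for GC content. Zbtb46, a zinc finger gene of conventional dendritic cells that endothelial cells also express, had 8.73, 5.45, 6.47 and 9.48 CPM in DT livers, 5.28, 5.65, 5.49 and 7.11 CPM in saline livers, and 6.85, 6.32 and 5.88 CPM in chow livers. DT livers 1 and 4 were above all other livers and the rest overlapped, with a log2 fold change of 0.36 (SE 0.19, adjusted p = 0.186) that became 0.48 (adjusted p = 0.036) without DT liver 2. The 6 endothelial markers summed to 234 to 260 CPM in DT livers, 298 to 312 CPM in saline livers and 280 to 325 CPM in chow livers. They did not move together, with 1 called higher and 2 called lower for DT against saline. Vwf was above every saline and chow liver in all 4 DT livers. Pecam1 was above every saline liver in DT livers 1 and 4, as Zbtb46 was. The part of endothelial cells in the Zbtb46 value was not tested.

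Wdfy4 encodes a large BEACH domain protein that cDC1 need for cross-presentation. It had 17.7, 6.30, 19.0 and 21.1 CPM in DT livers, 9.66, 6.26, 9.84 and 6.03 CPM in saline livers, and 6.08, 5.53 and 5.17 CPM in chow livers. DT livers 1, 3 and 4 were above every saline liver, and DT liver 2 lay among the saline livers. Means were 16.0 ± 6.62 CPM in DT livers and 7.95 ± 2.08 CPM in saline livers (SD, n = 4 each), and Wdfy4 rose with a log2 fold change of 1.01 (SE 0.31, adjusted p = 0.0404). The call was kept in 2 of the 11 fits without 1 liver (highest adjusted p 0.114, without DT liver 4) and was lost after correction for GC content (0.61, adjusted p = 0.103). Without DT liver 2 the value was 1.28 (adjusted p = 0.000323).

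Clec9a encodes the cDC1 lectin that binds actin exposed by dead cells. It was at 1.84, 2.10, 3.85 and 3.90 CPM in DT livers, 1.63, 0.752, 1.63 and 1.36 CPM in saline livers, and 1.88, 2.01 and 1.73 CPM in chow livers. DT livers 3 and 4 stood well above all others, whereas DT livers 1 and 2 were above the saline livers but at the level of the chow livers. Clec9a rose in DT livers against saline livers (log2 fold change 1.12, SE 0.32, adjusted p = 0.0298). The call was kept in 7 of the 11 fits without 1 liver, with a highest adjusted p of 0.0825 without DT liver 3, and it was kept after correction for GC content (1.07, adjusted p = 0.0197). The annotated exons of Clec9a overlap 184 bases of Clec1b on the same strand. Clec1b, a lectin gene looked at after this overlap was seen, had 7.91 to 9.81 CPM in DT livers and 9.33 to 11.6 CPM in saline livers, a log2 fold change of -0.29 (adjusted p = 0.0842) that turned to 0.18 after correction for GC content and to 0.05 under total count scaling. Against chow livers Clec1b fell in DT livers (-0.488, adjusted p = 0.0164). That call was kept in 8 of the 11 fits without 1 liver and lost after correction for GC content. The share of reads in the overlap was not tested.

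Cd209a, a mouse relative of human DC-SIGN found on cDC2 and monocyte-derived cells, was the gene of lowest counts. It had 72, 6, 75 and 77 reads (1.07, 0.125, 1.06 and 1.02 CPM) in DT livers and 4, 6, 28 and 4 reads (0.0815, 0.122, 0.512 and 0.0852 CPM) in saline livers. In chow livers it had 6, 2 and 0 reads, and 3 counts in that last library would be 0.0692 CPM. DT livers 1, 3 and 4 were alike and above all other livers, DT liver 2 was at the saline level, and saline liver 3 stood above the other saline livers. The log2 fold change of DT against saline was 2.01 (SE 0.82, adjusted p = 0.0976), not called, and without DT liver 2 it was 2.35 (adjusted p = 0.0171). Cd209a passed the filter on low counts (0.19 CPM in at least 3 livers) through 3 DT livers and 1 saline liver. The 10 genes all passed, and without Cd209a the counts called were 2 of 9 for DT against saline, 1 of 9 for saline against chow and 6 of 9 for DT against chow.

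Clec10a, a galactose-type lectin of cDC2 and macrophages, was at 1.10, 0.479, 1.47 and 1.52 CPM in DT livers, 0.734, 0.447, 0.658 and 0.213 CPM in saline livers, and 0.361, 0.287 and 0.415 CPM in chow livers. The DT livers again divided into livers 1, 3 and 4 above every saline liver and liver 2 among them. The log2 fold change was 1.16 (SE 0.44, adjusted p = 0.0784), not called, and without DT liver 2 the adjusted p was 0.0118. Its close relative Mgl2 had 0.328, 0.250, 0.395 and 0.703 CPM in DT livers against 0.0815, 0.0407, 0.0366 and 0.0426 CPM in saline livers, with all 4 DT livers above all saline livers. Mgl2 rose with a log2 fold change of 3.01 (adjusted p = 0.0107), although 3 of the 4 saline libraries held only 2 reads. It passed the filter on low counts through the DT livers, where it was high. Of 3181 stretches of 50 bases in Clec10a transcripts, 270 (8.49%) also occur in Mgl2, where they make up 12.24% of 2205, so reads of the pair may have been split and both values are uncertain.

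Siglech encodes a sialic acid binding lectin of pDC. It had 1.22, 0.874, 2.36 and 2.24 CPM in DT livers, 1.04, 1.36, 1.83 and 0.724 CPM in saline livers, and 0.232, 0.409 and 0.30 CPM in chow livers. DT and saline livers overlapped, and all 8 were above the 3 chow livers. DT against saline gave a log2 fold change of 0.44 (SE 0.39, adjusted p = 0.433) and was not called.

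**Figure D2:**
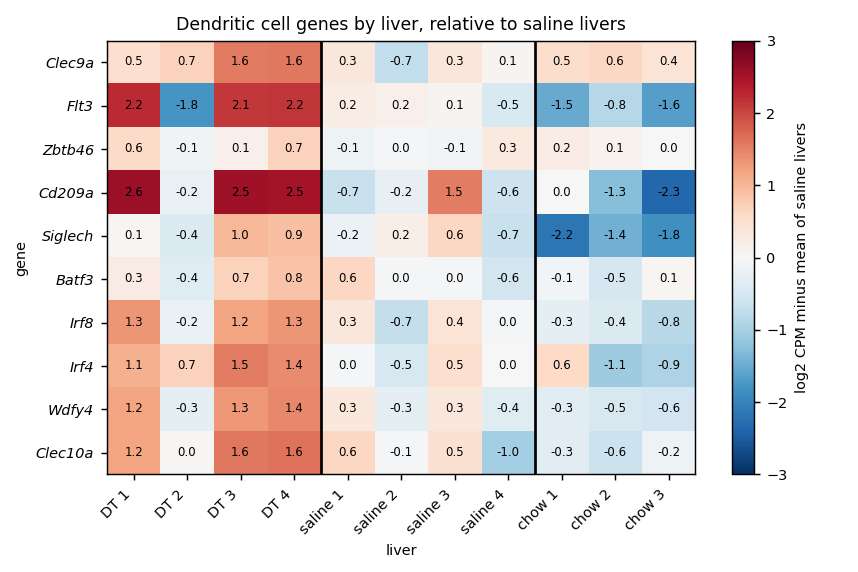
Log2 CPM of each gene (rows) in each liver (columns: 4 DT, 4 saline, 3 chow) minus the gene's mean over saline livers, as colour and number. DT livers 1, 3 and 4 are red for most genes, DT liver 2 is closer to 0 except for Clec9a, Irf4 and Flt3, and Siglech is blue in the 3 chow livers.

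Saline against chow tested the western diet with alcohol, together with injection. Siglech was the gene that rose, with means of 1.24 ± 0.472 CPM in saline livers (SD, n = 4) and 0.314 ± 0.0896 CPM in chow livers (SD, n = 3) and a log2 fold change of 1.97 (SE 0.47, adjusted p = 0.0319). That is 1 of 10 genes, beside 5.58% of all tested genes called and 2.45% called higher. At an unadjusted p below 0.05 the count was 1, beside 20.9% of all genes. The Siglech call was kept in 5 of the 11 fits without 1 liver, with a highest adjusted p of 0.144 without chow liver 1. Limma-voom called 0 of the 10 genes, beside 4.18% of all genes. Flt3 was also higher in every saline liver than in any chow liver (log2 fold change 1.42, SE 0.75, adjusted p = 0.313), as were 14.8% of all tested genes and it was not called. DT livers enter the shared estimate of the spread in this fit, and without DT liver 2 Flt3 was called (1.42, adjusted p = 0.0154). Clec9a was lower in every saline liver than in any chow liver, as were 15.6% of all tested genes, and was not called (-0.48, SE 0.35, adjusted p = 0.478). The other 7 genes overlapped between saline and chow livers, with adjusted p from 0.416 to 0.814. Besides Cd209a, their log2 fold changes ran from -0.11 for Zbtb46 to 0.555 for Irf8. For Cd209a 0 chow livers reached the level of the filter on low counts, so no fold is given.

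DT against chow gave larger values than DT against saline for 8 of the 10 genes, all but Clec9a and Zbtb46. It shares its DT livers with the DT against saline comparison and its chow livers with saline against chow. By edgeR 7 of the 10 genes rose and 0 fell, beside 23.0% of all tested genes called and 14.8% called higher. The median log2 fold change of the 10 was 1.57, beside -0.02 over all genes. Flt3 (3.24, SE 0.77, adjusted p = 0.0138) had the largest change of the genes besides Cd209a, though DT liver 2 was just below its chow range. Cd209a was called too (adjusted p = 0.0304), with DT liver 2 within the chow range. It passed the filter on low counts through 3 DT livers and 1 saline liver. As 0 chow livers reached the level of that filter for Cd209a, no fold is given. Siglech rose by 2.40 (SE 0.47, adjusted p = 0.00689), Clec10a by 1.69 (SE 0.50, adjusted p = 0.0327) and Irf4 by 1.62 (SE 0.52, adjusted p = 0.043) on the log2 scale. Irf8 and Wdfy4 both rose by 1.52 (SE 0.37 and 0.35, adjusted p = 0.0145 and 0.0124). In Siglech, Irf8, Irf4, Wdfy4 and Clec10a all 4 DT livers were above all 3 chow livers, as in 14.8% of all tested genes. Clec9a (0.64, adjusted p = 0.197), Batf3 (0.62, adjusted p = 0.275) and Zbtb46 (0.25, adjusted p = 0.402) were not called. Of the 7 calls, Siglech kept its own in 11 of 11 fits without 1 liver, Wdfy4 in 10, Flt3 and Irf8 in 9, Cd209a in 7, Clec10a in 6 and Irf4 in 3. Without chow liver 3, 1 of the 10 genes, Siglech, was called, beside 10.6% of all genes in that fit.

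**Figure D3:**
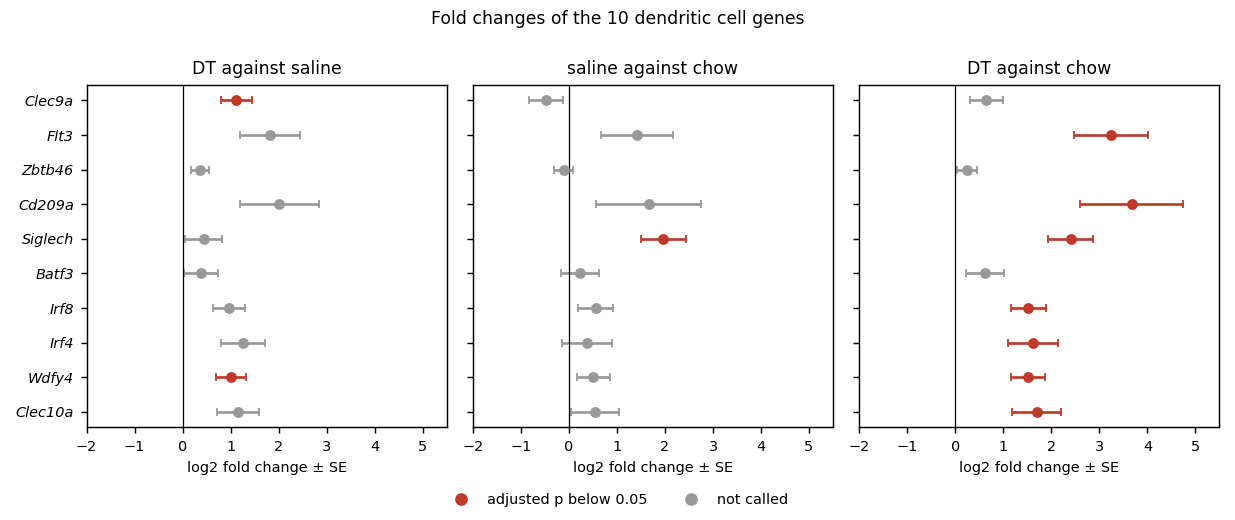
Fold changes of the 10 genes on the log2 scale (horizontal axes) with their standard errors, for DT against saline, saline against chow and DT against chow. Red points have an adjusted p below 0.05: 2, 1 and 7 genes in the 3 panels.

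Levels can be set against each other per kilobase of annotated exon (GENCODE M21). On that scale Irf8 was the highest of the 10 in every group, at 2.91 ± 1.13 CPM per kb in DT livers, 1.49 ± 0.476 in saline livers and 1.02 ± 0.198 in chow livers. Wdfy4 followed in DT livers with 1.52 ± 0.628 CPM per kb and in saline livers with 0.753 ± 0.198, and stood at 0.530 ± 0.0434 in chow livers, where Zbtb46 (0.747 ± 0.0569) and Clec9a (0.568 ± 0.0418) were above it. Irf4 was the lowest in DT livers (0.150 ± 0.0396 CPM per kb) and in saline livers (0.0625 ± 0.0200). In chow livers Irf4 (0.0493 ± 0.0392), Cd209a (0.0412 ± 0.0506) and Flt3 (0.0399 ± 0.0144) were not apart beyond their SD. In DT livers the order below Wdfy4 was Clec9a 0.887, Zbtb46 0.885, Batf3 0.605, Cd209a 0.518, Siglech 0.495, Clec10a 0.395 and Flt3 0.381 CPM per kb. Neighbours in that run differed by less than the SD of either gene, except Zbtb46 and Batf3, whose SDs were 0.222 and 0.213.

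The levels were also set against Ptprc, the pan-leukocyte gene for CD45. Ptprc had 6.91, 10.3, 27.3 and 29.9 CPM in DT livers, 14.9, 13.6, 18.9 and 11.3 CPM in saline livers, and 11.1, 9.03 and 7.94 CPM in chow livers. DT livers 3 and 4 were the highest and DT liver 1 the lowest of all 11, and the transcript, with 39.4% GC, is among the low-GC genes that were low in that library. Per unit of Ptprc, Irf8 was at 3.65, 0.847, 0.835 and 0.848 in DT livers, 0.858, 0.450, 0.712 and 0.868 in saline livers, and 0.756, 0.828 and 0.712 in chow livers. Apart from DT liver 1, the DT livers were thus within the saline range. Wdfy4 per Ptprc was 2.56, 0.611, 0.696 and 0.705 in DT livers, 0.649, 0.462, 0.520 and 0.534 in saline livers, and 0.548, 0.612 and 0.651 in chow livers, which again put DT liver 1 far from the rest, while DT livers 3 and 4 were slightly above all saline and chow livers. Flt3 per Ptprc was 0.467, 0.0161, 0.109 and 0.102 in DT livers, 0.0521, 0.0540, 0.0367 and 0.0415 in saline livers, and 0.0186, 0.0385 and 0.0233 in chow livers. For Flt3, then, DT livers 3 and 4 stayed above all saline and chow livers on this scale too. Of the 10 genes 2, Clec9a and Irf4, had all 4 DT livers above all 4 saline livers per unit of Ptprc, as they had in CPM. The share of all tested genes with that order per Ptprc was not computed, and margins were small. Clec9a was at 0.130 in DT liver 4 against 0.121 in saline liver 4, and Irf4 at 0.0284 against 0.0264 in the same livers. Clec9a per Ptprc was 0.169, 0.222 and 0.218 in chow livers, above DT livers 3 (0.141) and 4. Ptprc itself was not called for DT against saline (0.34, adjusted p = 0.545).

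Likeness of pattern was measured as the root mean square difference of log2 CPM, centred on each gene's mean, over the 11 livers. Irf8 and Wdfy4 were the closest pair among the 10 genes (0.19), followed by Wdfy4 and Clec10a (0.29). Outside the 10, over 11554 candidate genes, those nearest to Wdfy4 were Myo1g (0.11) and Selenon (0.12), beside a median of 0.82 over all candidates. Those nearest to Irf8 were Coro1a (0.17) and Emilin1 (0.20), beside a median of 0.84. Flt3 lay nearest to Sox4 (0.36) and Prss8 (0.46), Clec9a to Tm6sf1 (0.20) and Gca (0.23), and Siglech to Epha7 (0.29) and Kbtbd11 (0.36). Cd209a lay nearest to Capn6 (0.48) and Mbp (0.60), Clec10a to Eps8 (0.23) and Miga1 (0.24), and Irf4 to Oas1g (0.33) and Selenom (0.33). Batf3 lay nearest to Nxpe4 (0.20), and Zbtb46 to Eml2 and Ctdsp2 (both 0.12). The livers share their libraries and groups, so these distances are descriptions.

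A wider set of 59 dendritic cell genes in 6 lists (cDC1, cDC2 and shared conventional genes, pDC, mature cells, growth factors and regulators, other IRF genes) gave 56 that were tested. In DT livers against saline livers 12 of them rose and 1 fell, beside 14.3% of all genes called higher and 7.62% called lower, and their median log2 fold change was 0.71 beside 0.02. Itgax, the gene for CD11c, which dendritic cells share with macrophages, had 24.6, 3.68, 19.4 and 25.0 CPM in DT livers, 3.79, 1.99, 4.63 and 1.38 CPM in saline livers, and 0.412, 0.696 and 1.66 CPM in chow livers. It rose with a log2 fold change of 2.62 (adjusted p = 0.0127), with DT liver 2 again within the saline range. Ly6d, a surface gene used for pDC and B-lineage progenitors and also made by epithelia, rose by 3.16 (adjusted p = 0.0083), Csf2ra, a subunit of the GM-CSF receptor, by 1.23 (adjusted p = 0.0106) and Cacnb3, a calcium channel subunit listed for mature cells, by 2.50 (adjusted p = 0.0142). Relb, an NF-kappaB subunit, rose by 1.55 (adjusted p = 0.0182), Itgae, the gene for CD103, by 2.32 (adjusted p = 0.0287) and Sirpa, a surface gene of cDC2 and macrophages, by 1.09 (adjusted p = 0.0369). Irf9, which works in the interferon response, fell by 0.44 on the log2 scale (adjusted p = 0.0368). In fits without 1 liver Sirpa kept its call in 2 of 11, Irf9 in 3, Itgae in 4 and Relb in 8, with highest adjusted p of 0.102, 0.108, 0.0847 and 0.059, and Itgax, Ly6d, Csf2ra and Cacnb3 in 11. Irf9 was not called under total count scaling (-0.10, adjusted p = 0.583). Of the 56 genes 6 were tested only because of the DT livers, among them Mgl2 and Pacsin1 of the 12 that rose.

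Several lineage genes of the same wider set were not called for DT against saline. Xcr1, the chemokine receptor of cDC1, had 1.04, 0.333, 0.819 and 1.51 CPM in DT livers and 0.693, 0.447, 0.476 and 0.383 CPM in saline livers (log2 fold change 0.90, adjusted p = 0.175), and without DT liver 2 it was called (1.17, adjusted p = 0.0283). Ccr7, the receptor that guides mature dendritic cells to lymph nodes, had 2.34, 0.458, 1.58 and 1.19 CPM in DT livers and 0.897, 0.366, 1.04 and 0.256 CPM in saline livers (1.12, adjusted p = 0.154), and it too was called without DT liver 2 (1.40, adjusted p = 0.0337). In both, DT livers 1, 3 and 4 were above every saline liver and DT liver 2 was not. Spi1, the gene for PU.1 (0.09, adjusted p = 0.718), Batf (0.69, adjusted p = 0.245) and Id2, a cDC1 regulator (-0.31, adjusted p = 0.533), were likewise not called. Id2 turned to 0.06 under total count scaling and Spi1 to -0.42 after correction for GC content. Id2 stood at log2 CPM 6.1 to 7.6 over the livers, against -2.8 to 0.6 for Xcr1, and which cells gave the Id2 value was not tested.

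**Figure D4:**
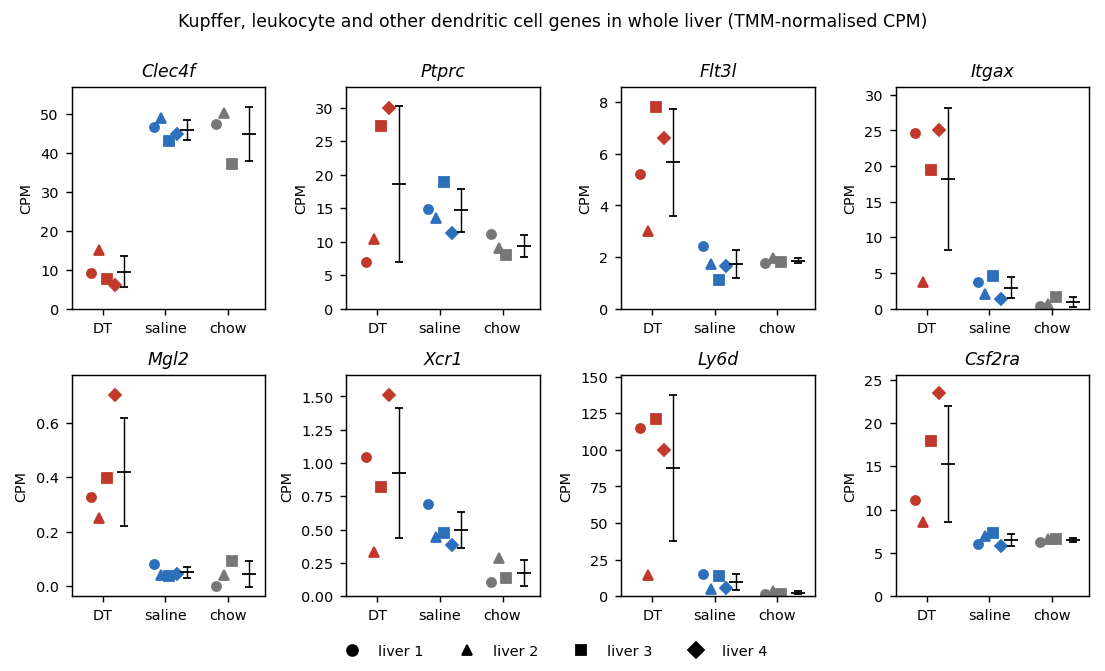
TMM-normalised CPM (vertical axes, linear) of Clec4f, Ptprc, Flt3l, Itgax, Mgl2, Xcr1, Ly6d and Csf2ra in each DT, saline and chow liver, with group mean and SD. All 4 DT livers are at or below 15.2 CPM for Clec4f and above every saline liver for Flt3l, Mgl2 and Csf2ra, while DT liver 2 lies with or below the saline livers for Ptprc, Itgax, Xcr1 and Ly6d.

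The wider set was also set against chow. In saline livers against chow livers 3 of the 56 rose and 1 fell, beside 2.45% and 3.13% of all genes. Bst2 of the pDC list (1.03, adjusted p = 0.00304), the mature cell chemokine gene Ccl22 (adjusted p = 0.0385) and the interferon regulator Irf7 (0.80, adjusted p = 0.0179) rose. Nfil3, a factor upstream of cDC1, fell by 1.47 on the log2 scale (adjusted p = 0.0332). Bst2 was at log2 CPM 6.8 to 7.1 in saline livers, where Siglech was at -0.4 to 0.9. Nfil3 was at log2 CPM 5.1 to 5.4 in chow livers, where Clec9a was at 0.8 to 1.0. Which cells gave the Bst2 and Nfil3 values was not tested. Ccl22 had 36, 16, 52 and 6 reads in saline livers and 2, 0 and 2 in chow livers, so no fold is given. In fits without 1 liver Ccl22 and Nfil3 kept their calls in 4 of 11, with highest adjusted p of 0.141 and 0.13, Irf7 in 8 and Bst2 in 11. In DT livers against chow livers 24 of the 56 rose and 0 fell, beside 14.8% and 8.16% of all genes, with a median of 1.18. The 56 include the 6 genes tested only because of the DT livers, so this count and median are not independent of the filter. Neither was computed without those genes. Among them were Ly6d (5.26, adjusted p = 0.00325), Itgax (4.29), Relb (2.43), Cd83, a maturation gene (2.05), and Fscn1, which encodes the actin bundler fascin (1.74). Itgae and Runx2, a pDC regulator, were called too (adjusted p = 0.00711 and 0.00846). For both, 0 chow livers reached the level of the filter on low counts, so no fold is given. Xcr1 (2.37, adjusted p = 0.013) and Ccr7 (2.15, adjusted p = 0.0333) also rose in this comparison.

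**Figure D5:**
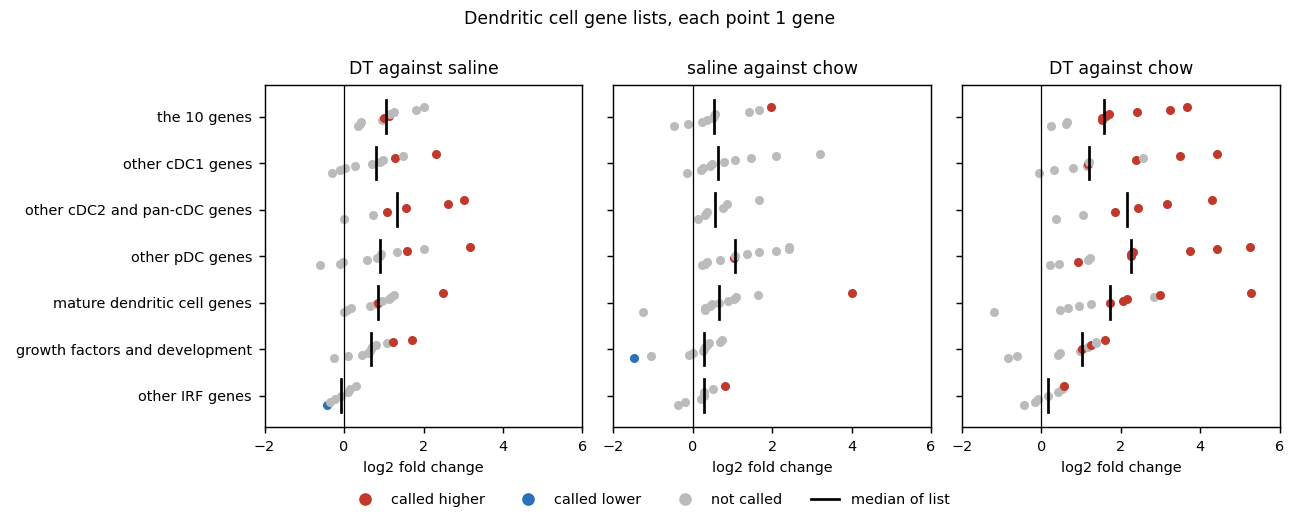
Log2 fold changes (horizontal axes) of the 10 genes and of the tested genes in 6 wider lists for DT against saline, saline against chow and DT against chow, 1 point a gene, with black bars at list medians. Red points were called higher and blue ones lower: 12 and 1 of the 56 wider genes for DT against saline, 3 and 1 for saline against chow, 24 and 0 for DT against chow.

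Relatives of the lectins were followed as well. Of 9 tested C-type lectin genes outside the 10, 0 were called for DT against saline by edgeR or limma-voom, 1 by DESeq2, and 6 without DT liver 2, with 3 at an unadjusted p below 0.05. Over all genes 40.3% were called without DT liver 2 and 37.4% had an unadjusted p below 0.05. Cd209b, the tested relative of Cd209a, was at a log2 fold change of -2.02 (adjusted p = 0.11), and the other Cd209 genes were too low to be tested. Against chow 3 of the 9, Clec7a (1.96), Clec12a (0.97) and Clec4e, rose in DT livers, beside 14.8% of all genes called higher. These 3 belong to myeloid cells in general. Clec4e was near the floor in chow livers (log2 CPM -4.751, -3.679 and -4.751), so no fold is given. In fits without 1 liver Clec12a kept its call in 4 of 11, Clec4e in 7 and Clec7a in 11, with highest adjusted p of 0.133, 0.1 and 0.0413. Of 6 Siglec genes besides Siglech, Cd33 (1.91, adjusted p = 0.00782) and Cd22 (1.24, adjusted p = 0.0399) rose in DT livers against saline livers, and Cd22 kept its call in 3 of 11 fits without 1 liver.

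Markers of other cell types were followed in the same livers. All 6 Kupffer cell markers fell in DT livers against saline livers, from -0.63 for Cd5l to -5.59 for Cd163, and summed to 111 to 184 CPM in DT livers, 265 to 370 CPM in saline livers and 253 to 333 CPM in chow livers. Of 9 monocyte and macrophage markers, cells that also express Itgax, Sirpa, Irf8 and Clec10a, Cx3cr1 (3.23, adjusted p = 0.00673) and Cd68 rose and Adgre1 fell (-0.60, adjusted p = 0.0304). The sum of these 9 was 208 to 442 CPM in DT livers, 206 to 317 CPM in saline livers and 187 to 288 CPM in chow livers. All 5 cholangiocyte markers rose, from 2.96 for Sox9 to 4.53 for Krt19, with sums of 27.8 to 395 CPM in DT livers, 19.9 to 45.2 CPM in saline livers and 20.3 to 32.6 CPM in chow livers. In the monocyte and cholangiocyte sums the lowest DT value was that of DT liver 2.

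B cell and T cell markers were low in all libraries. Of 6 B cell markers, which bear on Irf8, Irf4 and Ly6d, 0 were called for DT against saline by edgeR, DESeq2 and limma-voom, with 0 at an unadjusted p below 0.05, and they summed to 2.41 to 7.17 CPM in DT livers, 2.56 to 4.94 CPM in saline livers and 2.72 to 6.10 CPM in chow livers. Of 8 T and NK cell markers Cd8a rose (2.02, adjusted p = 0.0426), and their sum was 5.93 to 12.8 CPM in DT livers, 4.72 to 7.97 CPM in saline livers and 2.96 to 3.95 CPM in chow livers. The plasma cell markers summed to 428 to 643 CPM in DT livers, 363 to 556 CPM in saline livers and 424 to 538 CPM in chow livers, and Sdc1 and Xbp1, which hepatocytes also express, were the highest of them. Of 4 tested plasma cell markers 0 were called by the 3 tools, with 0 at an unadjusted p below 0.05. Tnfrsf17, which defines those cells, had 2, 0, 0 and 2 reads in DT livers and 0 in every other library. Of 4 tested neutrophil markers Retnlg rose (1.86, adjusted p = 0.048), and of the defining genes Ly6g had 0 to 2 reads per library and Mpo 0 reads in saline and chow livers and 4, 0, 16 and 8 reads in DT livers. The sum of the 10 dendritic cell genes ran over 25.3 to 69.8 CPM in DT livers, 22.3 to 35.3 CPM in saline livers and 20.2 to 25.3 CPM in chow livers. The part of any of these cell types in the values of the 10 genes was not tested.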

How the data were processed

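Whole-liver RNA of 4 DT, 4 saline and 3 chow livers was sequenced. The authors deposited raw read counts per gene, made with STAR and featureCounts on GRCm39 after FastQC, per the submitters' processing notes. Versions, the annotation and the strand setting are not given in the sources used here, and 77.9 to 82.0% of low counts were even, so the 2 mates of a pair may each have been counted. Counts were tested with edgeR 4.0.16 in R 4.3.3 (filterByExpr, TMM, robust quasi-likelihood fit with 1 mean per group, 8 residual degrees of freedom, two-sided, Benjamini-Hochberg over 17038 genes, threshold 0.05), after the code was tested on simulated data. DESeq2 1.42.0 and limma-voom (limma 3.58.1) were alternatives, as were other scalings, filters and fits. The common biological coefficient of variation was 30.1%. Log2 CPM used a prior count of 2. Exon lengths, GC content and overlaps came from GENCODE M21 on GRCm38, matched by gene ID, and no coordinate was carried between builds. Genes named were all 10 members, fixed genes (Clec4f, Ptprc, Flt3l, Id2, Batf, Spi1, Xcr1, Itgax, Mgl2, Ccr7), up to 10 called genes of the wider lists by p, called lectin and Siglec genes, the extremes of each marker list and the 2 nearest genes in pattern, of which 1 is not reported here. The members, lists and tests were chosen with earlier results of these data known. Replicates were no duplicates, since 42.7 to 79.6% of genes differed beyond sampling between livers of a group.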

Additional observations from a re-analysis of the deposited data

Results flagged for a closer look

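In groups of 4 livers, a gene was looked at again where its highest or lowest liver stood apart by more of the group's range than Dixon's 95% limit. Of 82 gene and group pairs over 41 genes 6 did so, and chance gives about 1 in 20. DT liver 2 accounted for 3 of them among the 10 dendritic cell genes and for 4 in all. It was the low liver for Flt3 at 0.1665 CPM, with the other DT livers at 2.98 to 3.22 CPM. It was low for Cd209a at 0.1249 CPM, with the others at 1.02 to 1.07 CPM, and for Irf8 at 8.739 CPM, with the others at 22.8 to 25.3 CPM. Sirpa, a surface gene of cDC2 and macrophages, was at 28.01 CPM in that liver and at 86.0 to 89.8 CPM in the others. In the saline group, liver 3 was high for Cd209a at 0.5121 CPM, with the others at 0.0815 to 0.122 CPM. Saline liver 1 was high for Mgl2 at 0.08151 CPM, with the others at 0.0366 to 0.0426 CPM, a difference of 4 reads against 2.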

How the results depend on the processing

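Counts called are given in the order the 10 genes, the wider dendritic cell genes, all genes. For DT against saline (2, 13 and 3734) total count scaling called 7, 21 and 5629, a fit of only the compared groups 1, 8 and 2303, and a fit without DT livers 1 and 2 together (added after seeing the data) 7, 29 and 7894. For the 10 genes DESeq2 called 6, halved counts 4, no filter 1 and correction for GC content (also added later) 1. For saline against chow (1, 4 and 950) the fit of only the compared groups called 2, 14 and 3105, and that without DT livers 1 and 2 called 2, 18 and 3311. DESeq2 called 9 wider genes and 1739 in all, and limma-voom 0 of the 10. For DT against chow (7, 24 and 3919) total count scaling called 42 wider genes and 6536 in all, and the fit without DT livers 1 and 2 called 41 and 7827. Limma-voom called 4 of the 10, and the fit of only the compared groups 3 of the 10 and 2089 in all. The cause of these shifts was not tested.

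Deviations from the group means correlated at -0.16 to 0.18 between same-numbered livers. The same-numbered liver was the best match for replicates 1 and 3 of DT against saline and replicate 1 of saline against chow, and not otherwise. With 3 or 4 livers a group, these values cannot decide whether replicate numbers pair the livers. With a replicate block the counts were 0 and 8 for DT against saline (10 genes and wider genes), 0 of the 10 and 559 in all for saline against chow, and 3 of the 10 and 2210 in all for DT against chow. Block fits of all genes gave 2842 for DT against saline.

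Leaving out 1 liver at a time gave 0 to 8 of the 10 genes, 6 to 26 wider genes and 1786 to 6824 in all for DT against saline, each highest without DT liver 2. It gave 0 to 2, 1 to 11 and 287 to 1924 for saline against chow, and 1 to 7, 13 to 39 and 1786 to 6834 for DT against chow.

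Total count scaling moved the median log2 fold change of all genes to 0.357 for DT against saline, with 92.1% of calls higher (65.2% in the reported fit), to 0.127 for saline against chow, with 67.0% higher (43.9%), and to 0.444 for DT against chow, with 94.8% higher (64.5%). Upper-quartile scaling gave 75.7% higher for DT against saline and 77.6% for DT against chow, limma-voom 53.1% and 50.6%. Correction for GC content gave 38.2% and 38.6%, with all-gene medians of -0.16 and -0.22.

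A few log2 fold changes near 0 changed sign. For DT against saline these were Id2 (0.062) and Clec1b (0.047) under total count scaling, and Clec1b (0.176), Spi1 (-0.417) and Batf3 (-0.162) after correction for GC content. For saline against chow Zbtb46 (0.011) and Flt3l (0.019) did so under total count scaling. For DT against chow Id2 was at 0.063 under upper-quartile scaling, 0.428 under total count scaling and 0.001 with limma-voom, and Spi1 was at -0.054 after correction for GC content. Leaving out 1 liver gave both signs for Spi1 (-0.008 to 0.192) in DT against saline, for Batf3 (-0.030 to 0.389), Flt3l (-0.312 to 0.084), Mgl2 (-0.375 to 1.098), Clec4f (-0.091 to 0.120) and Id2 (-0.006 to 0.828) in saline against chow, and for Id2 (-0.318 to 0.517) in DT against chow.

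At 3 counts a gene stands at 0.0398 to 0.0773 CPM, so Mgl2 in saline and chow livers, and Cd209a in those livers other than saline liver 3, lie near the lowest level that can be measured.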
